A study of Mus musculus with 20 samples.

Results

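The 39 genes described here encode the proteins that copy DNA and the enzymes that make its building blocks. They were taken by name from the deposited gene counts of plantaris tendon, and all 39 were found among 24885 genes and were among the 18918 tested. The 20 libraries fall into 5 groups of 4. WT day 0 tendons came from ScxCreERT2-/- IGF1Rflox/flox mice with no tamoxifen and no growth stimulus. WT day 7 and WT day 14 tendons came from ScxCreERT2-/- IGF1Rflox/flox mice, and KO day 7 and KO day 14 tendons from ScxCreERT2+/+ IGF1Rflox/flox mice, all with tamoxifen and a growth stimulus of that length. Every group thus carries the floxed alleles of the receptor for insulin-like growth factor 1, and the recombinase acts where Scx, a transcription factor gene of tendon cells, is active. No unstimulated KO group was analysed here, so a change from day 0 in KO tendon starts from WT day 0. Nothing in the labels ties each replicate to an animal of its own, and the p-values reflect only how far these libraries spread, which may be technical variation. Tamoxifen and the stimulus both set the later groups apart from day 0 and cannot be told apart there.

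Library depth was 32.3 to 63.5 M counts. Levels are given in CPM, each count divided by the library total in M after scaling with TMM factors. The count of the targeted gene Igf1r did not check the genotype labels: it was 46.0 to 50.8 CPM in WT and 49.0 to 55.0 CPM in KO libraries at day 7, with a KO against WT log2 difference of 0.06 ± 0.08 (SE; adjusted p = 0.646, edgeR). At day 14 it was 40.5 to 48.7 CPM in WT and 49.8 to 60.3 CPM in KO libraries, so every KO library lay above every WT library, though the difference of 0.23 ± 0.08 did not pass (adjusted p = 0.162, edgeR). The excised part of the gene cannot be read from a whole-gene count. Scx, which holds the recombinase, read 44.8 to 57.1 CPM in WT and 557 to 1150 CPM in KO libraries at day 7. Below, KO means the libraries so labelled. Tenocyte markers summed to at least 48000 CPM in every library, and markers of skeletal muscle fibres and macrophages were also present in every library.

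Before a cell divides, the origin recognition complex, CDC6 and CDT1 load the ring of MCM2 to MCM7 onto DNA. CDC45 and the GINS complex then turn that ring into the active helicase, primase and DNA polymerase alpha start each strand, and polymerases delta and epsilon extend it while held by the PCNA clamp. Many of these genes are transcribed at the passage from G1 to S phase under E2F factors, and most cells of a resting adult tendon are not in division. RNA of these genes is therefore widely read as a sign of cells entering S phase.

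The growth stimulus was accompanied by higher RNA of nearly the whole set in WT tendon at day 7. Compared with WT day 0, 38 of the 39 genes were higher (adjusted p below 0.05, edgeR's quasi-likelihood test with Benjamini-Hochberg adjustment), against 32.3% of all tested genes called higher. No member was lower, against 31.8% of all tested genes. The median log2 change over the 39 was 1.49, beside 0.02 over all tested genes, and single changes ran from 0.25 for Rpa2 to 4.11 for Ccne1. In 38 genes every WT day 7 library lay above every WT day 0 library, a separation that 30.4% of all tested genes showed in this direction.

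**Figure D1:**
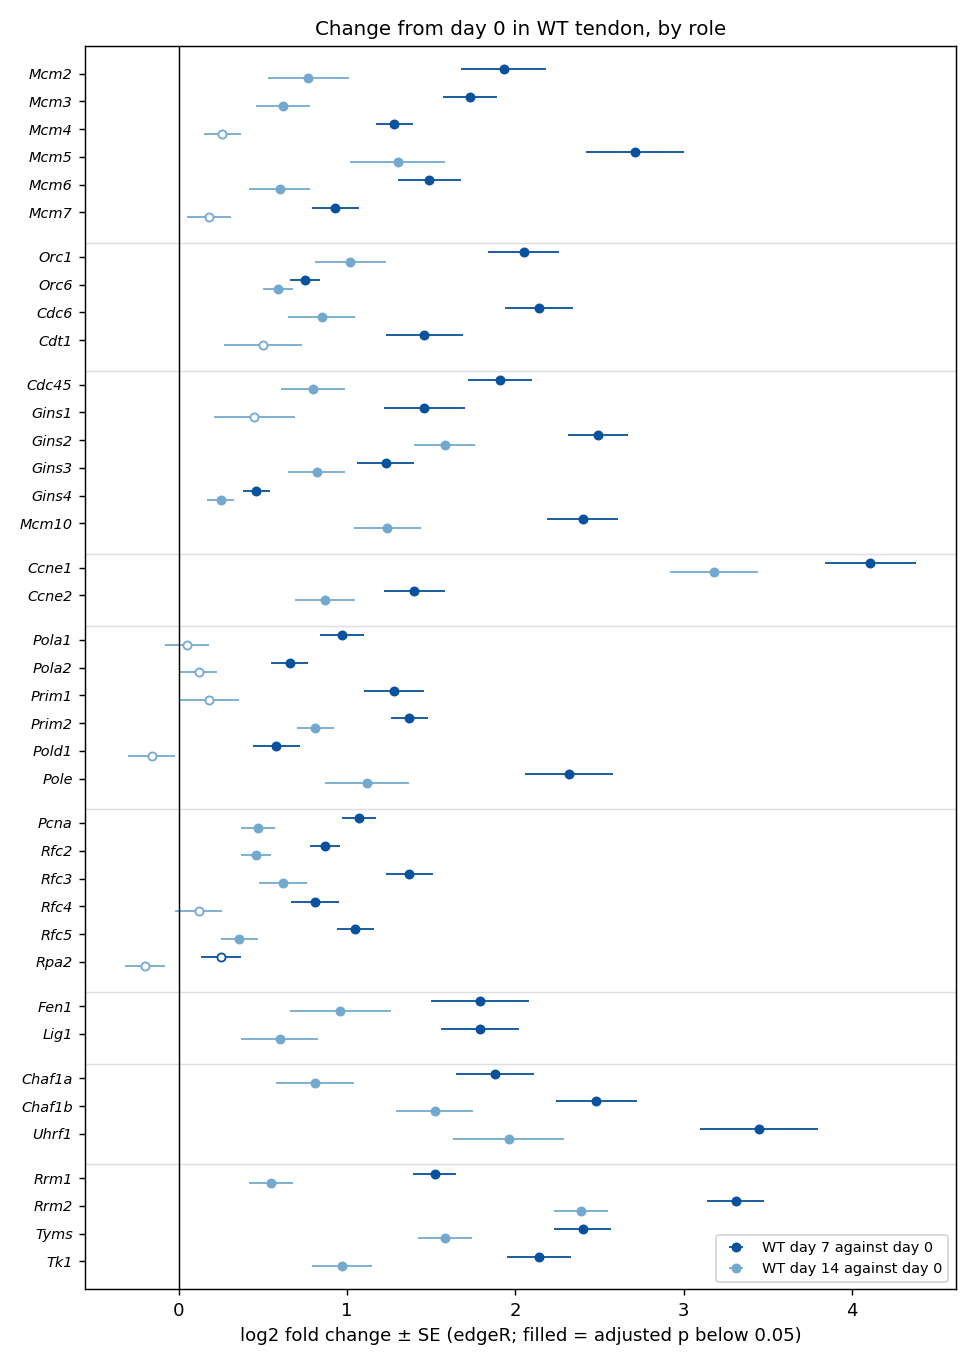
Log2 fold change (x axis) of each of the 39 genes (y axis, grouped by role) in WT tendon at day 7 and day 14 against day 0. Points are edgeR estimates, bars are SE and filled points have an adjusted p below 0.05. All 39 estimates are above 0 at day 7, and those at day 14 lie closer to 0 for every gene.

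All 6 subunits of the MCM2 to MCM7 helicase rose at WT day 7. Mcm5 read 8.81, 8.83, 6.96 and 7.10 CPM at WT day 0 and 46.0, 66.9, 53.6 and 40.8 CPM at WT day 7, a log2 change of 2.71 ± 0.29 (SE; adjusted p = 2.68e-07, edgeR). The lowest day 7 library was far above the highest day 0 library. Mcm7 changed least of the 6, by 0.93 ± 0.14 on the log2 scale, from 18.3 ± 2.43 to 35.0 ± 4.91 CPM (SD, n = 4). Measured per kilobase of exon, with all annotated exons of a gene merged, Mcm2 was the lowest subunit in each of the 5 groups. Its merged length of 6.96 kb is the longest of the 6, and in CPM at WT day 0 Mcm2 (10.2) was above Mcm5 (7.92). Ranks and ratios per kilobase, here and below, depend on these merged lengths. The highest subunit was 4.21 times the lowest at WT day 0 and 2.8 times at WT day 7.

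The genes that load the helicase also rose. Cdc6, which recruits the MCM ring to origins, read 1.87, 2.26, 1.52 and 1.56 CPM at WT day 0 and 7.14, 9.25, 9.07 and 6.48 CPM at WT day 7, a log2 change of 2.14 ± 0.20. Orc1, the largest subunit of the origin recognition complex, rose from 0.931 ± 0.154 to 3.85 ± 0.542 CPM (SD, n = 4). Both stayed low in absolute level, while Orc6, the smallest subunit of that complex, was already at 13.4 ± 0.709 CPM at day 0 and rose to 22.6 ± 1.69 CPM. Cdt1, the partner of CDC6 in loading, rose by 1.46 ± 0.23 on the log2 scale. Per kilobase, Cdt1 and Gmnn, which encodes the inhibitor of CDT1, stood at 1.76 and 1.68 CPM per kilobase at WT day 0 and at 4.85 and 7.07 at WT day 7.

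Among the helicase activators, the 4 genes of the GINS complex differed from each other in their changes. Gins2 rose most, with 2.48, 2.78, 1.94 and 2.33 CPM at WT day 0 and 12.4, 15.7, 13.6 and 12 CPM at WT day 7 (log2 change 2.49 ± 0.18). Gins4 rose by 0.46 ± 0.08, from 13.9 ± 0.662 to 19.2 ± 1.59 CPM (SD, n = 4), and its groups also did not overlap. Per kilobase, Gins4 was the highest of all 39 genes at WT day 0 with 10.3 CPM per kilobase, 17.7 times the level of Gins2, and at WT day 7 it was 6.96 times the lowest GINS gene, which was then Gins3. The exons of Gins2 share 67.3% of their bases with Gse1 on the opposite strand. Since the strand setting of the counting is not given in the sources used here, the level of Gins2 is uncertain. Mcm10, which joins the active helicase, rose by 2.40 ± 0.21, and Cdc45 by 1.91 ± 0.19 on the log2 scale.

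The cyclin E genes, partners of CDK2 at the entry to S phase, were unequal in start and rise. Ccne1 (chr7:38097984-38107534, GRCm38, minus strand, protein coding) read 0.673, 0.683, 0.604 and 0.385 CPM at WT day 0 and 8.87, 12.4, 10.1 and 9.51 CPM at WT day 7. This 17.3-fold difference was the largest of the 39 (log2 change 4.11 ± 0.27, adjusted p = 2.36e-10, edgeR). Ccne2 started higher, at 4.74 ± 0.395 CPM, and reached 12.5 ± 2.44 CPM (SD, n = 4), a 2.65-fold difference.

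The polymerases ranged from small to large changes. Pole, the catalytic subunit of polymerase epsilon on the leading strand, read 5.35, 5.19, 5.14 and 4.45 CPM at WT day 0 and 25.2, 29.1, 24.1 and 22.4 CPM at WT day 7. Pold1, the catalytic subunit of polymerase delta on the lagging strand, went from 21.5 ± 1.68 to 32.3 ± 4.72 CPM (SD, n = 4), a 1.5-fold difference against 5.01-fold for Pole. The 4 genes of the polymerase alpha and primase complex rose by 0.66 (Pola2) to 1.37 (Prim2) on the log2 scale.

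Clamp, clamp loader and single-strand binding genes changed least as a group, with a median log2 change of 0.96 over 6 genes. Pcna, which encodes the sliding clamp, read 22.5, 22.7, 19.2 and 19.6 CPM at WT day 0 and 42.8, 51.9, 41.8 and 39.3 CPM at WT day 7 (log2 change 1.07 ± 0.10). The 4 small clamp loader subunits Rfc2, Rfc3, Rfc4 and Rfc5 rose by 0.81 to 1.37. Rpa2, a subunit of the single-strand binding protein RPA, had 20.1, 19.8, 22.1 and 22.5 CPM at WT day 0 and 24.6, 27.3, 27.0 and 21.4 CPM at WT day 7. Those groups overlapped, and its log2 difference of 0.25 ± 0.12 did not pass the test (adjusted p = 0.0738, edgeR).

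Genes of strand joining, chromatin assembly and nucleotide supply gave several of the largest changes. Lig1, the ligase that joins Okazaki fragments, rose from 12.1 ± 1.48 to 42.1 ± 6.30 CPM (SD, n = 4). Fen1, the flap nuclease of the same step, rose by 1.79 ± 0.29 but had only 989 counts over all 20 libraries and shares 78.8% of its exon bases with the antisense gene Gm10143, so its level is uncertain. Uhrf1 (chr17:56303321-56323486, GRCm38, plus strand), which recruits the maintenance DNA methyltransferase to new DNA, read 4.40, 4.21, 2.77 and 2.77 CPM at WT day 0 and 34.1, 48.6, 41.2 and 30.5 CPM at WT day 7. Chaf1a and Chaf1b, subunits of the histone chaperone CAF-1, rose by 1.88 and 2.48 on the log2 scale. Chaf1a shares 52.5% of its exon bases with Ubxn6 on the opposite strand and is uncertain for that reason. Another 11 members share smaller parts of their exons, from 0.7% to 17.4%, with genes on the opposite strand.

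Ribonucleotide reductase makes deoxynucleotides from ribonucleotides, and its RRM2 subunit is the one known to be limited to dividing cells. Rrm2 (chr12:24708241-24714146, GRCm38, plus strand) read 5.90, 6.90, 4.91 and 5.58 CPM at WT day 0 and 57.6, 66.3, 59.0 and 48.6 CPM at WT day 7, with no overlap. Per kilobase it moved from rank 14 of the 39 genes at WT day 0 to rank 1 at WT day 7, at 20.9 CPM per kilobase. Rrm1, the large subunit, moved from 3.07 to 8.81 CPM per kilobase. Rrm2b, the small subunit known from cells outside S phase, went the other way, from 2.80 ± 0.370 to 1.24 ± 0.0228 CPM per kilobase (SD, n = 4), with a log2 change of -1.17 ± 0.12. Tyms, which makes thymidylate, and Tk1, which salvages thymidine, rose 5.30-fold and 4.41-fold.

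**Figure D2:**
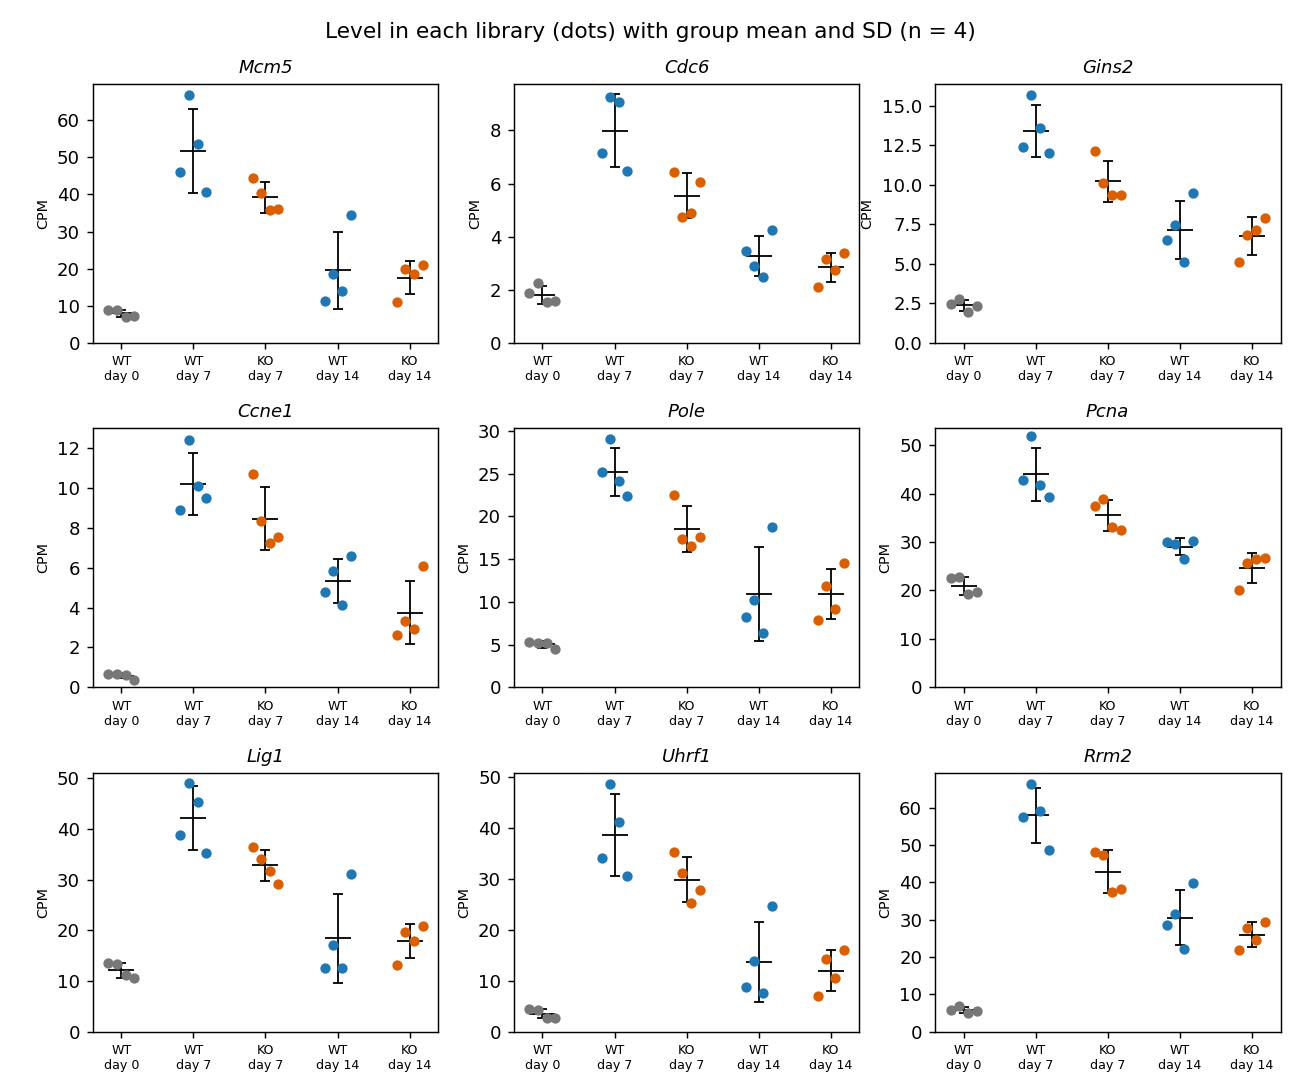
CPM (y axis, from 0) in each of the 20 libraries (dots) by group (x axis) for 9 genes, 1 from each role, with the group mean and SD as bars (n = 4). In these 9 genes no WT day 7 library overlaps a WT day 0 library, and WT day 14 replicate 4 is the highest of its group.

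Promoter windows show what these genes share in sequence that the choice of members did not use. RefSeq windows (GRCm38.p6, 250 bases before to 50 bases after the start) were found by symbol for 31 of the 39 members. The E2F-like letters searched on both strands were TTTCGCGC, TTTGGCGC, TTTCCCGC, TTTGCCGC and GGCGGGAA. The last of these overlaps TTTCCCGC on the other strand and can overlap the Sp1 letters GGGCGG. Such a match was in 17 of 31 members (54.8%), in 7.3% of 13020 tested genes and in 4.5% of all 27025 genes with a window. The NF-Y letters CCAAT were in 61.3% of members and 41.7% of tested genes, and GGGCGG in 74.2% and 62.4%. TTTGAA, the core of the cell cycle homology region, was in 12.9% and 15.1%. The median GC content was 59.2% in the members' windows and 59.3% in those of tested genes. Members with an E2F-like match had a median log2 change at WT day 7 of 1.49 (17 genes), and members with a window and no match 1.92 (14 genes). Rrm2, Ccne1 and Mcm10, among the largest changes, hold none of the searched E2F-like letters in their windows. A match is a description of letters, and binding was not measured.

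The 250 bases before the RefSeq start are printed for 4 members from different roles, each the member of its role with a window that changed most at WT day 7, where a match lies in them. Capitals mark the E2F-like letters, and every stretch reads 5′ to 3′ on the strand of the gene. Uhrf1 is at chr17:56303087-56303336 (plus), Mcm5 at chr8:75109259-75109508 (plus), Rfc3 at chr5:151651209-151651458 (minus) and Prim1 at chr10:128014965-128015214 (plus), all in GRCm38.p6.
Uhrf1: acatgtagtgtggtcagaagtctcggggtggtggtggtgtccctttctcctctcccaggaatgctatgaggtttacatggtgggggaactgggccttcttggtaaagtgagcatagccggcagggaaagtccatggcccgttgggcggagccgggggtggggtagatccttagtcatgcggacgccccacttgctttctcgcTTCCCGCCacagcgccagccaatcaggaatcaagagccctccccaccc
Mcm5: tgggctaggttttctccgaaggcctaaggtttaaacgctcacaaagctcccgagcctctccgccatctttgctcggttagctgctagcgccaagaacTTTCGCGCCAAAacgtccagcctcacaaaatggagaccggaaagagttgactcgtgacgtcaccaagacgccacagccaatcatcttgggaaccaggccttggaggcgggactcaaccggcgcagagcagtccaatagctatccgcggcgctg
Rfc3: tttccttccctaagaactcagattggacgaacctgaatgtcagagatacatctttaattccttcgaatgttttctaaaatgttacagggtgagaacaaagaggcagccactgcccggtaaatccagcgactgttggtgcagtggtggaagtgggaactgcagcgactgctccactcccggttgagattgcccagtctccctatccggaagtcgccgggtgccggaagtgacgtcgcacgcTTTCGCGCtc
Prim1: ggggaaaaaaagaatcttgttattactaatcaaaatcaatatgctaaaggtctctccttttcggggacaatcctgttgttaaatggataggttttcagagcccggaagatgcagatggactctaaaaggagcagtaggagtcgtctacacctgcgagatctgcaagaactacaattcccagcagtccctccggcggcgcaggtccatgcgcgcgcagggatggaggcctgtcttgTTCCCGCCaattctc
The match lies close to the RefSeq start in Rfc3 and Prim1 and further upstream in Mcm5, where letters on both strands overlap in 1 stretch. GENCODE places the start of Rfc3 at 151651242 and that of Prim1 at 128015168, so by that annotation both matches lie inside the gene. Cdc6 and Lig1, which also lead their roles and hold a match in the window, are not printed.

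**Figure D3:**
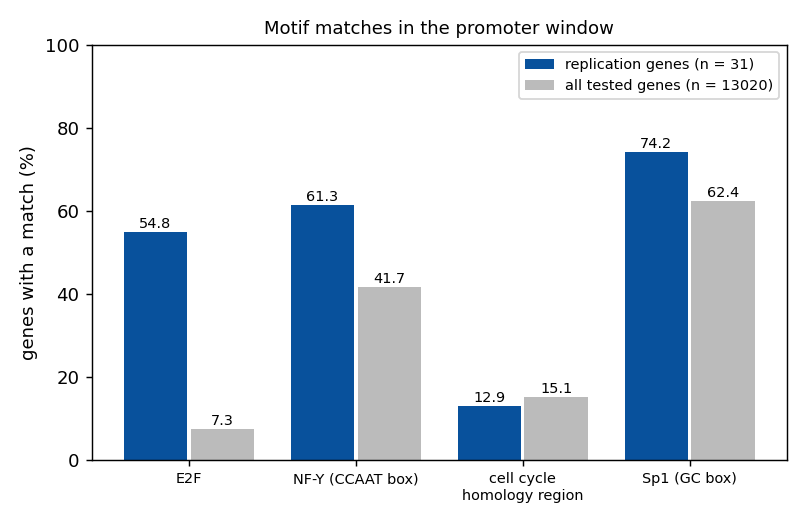
Share of genes (y axis, %) with at least 1 match in the promoter window for 4 motifs (x axis), in the 31 replication genes with a window and in 13020 tested genes. The E2F bars differ most, at 54.8% and 7.3%.

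Pathway genes outside the 39 moved less uniformly at WT day 7, where 32.3% of all tested genes were called higher and 31.8% lower. Of 36 other replication factors, 28 were higher and 2 lower, with a median log2 change of 0.76. Dbf4, the activator of the CDC7 kinase that fires origins, rose by 2.99 ± 0.16, Ticrr, another firing factor, by 3.91 ± 0.34, and Dnmt1, the maintenance DNA methyltransferase, by 1.33 ± 0.12, whereas Pold2 and Asf1a were lower (-0.33 and -0.35). Of 35 other genes of nucleotide synthesis and salvage, 21 were higher and 5 lower, with a median of 0.40. Dctd and Dck, which feed the thymidylate and salvage routes, rose by 2.90 and 2.04, while Adssl1, the muscle form of adenylosuccinate synthase, was lower (-3.29 ± 0.45). Of 29 regulators of the G1 to S passage, 20 were higher and 4 lower. Cdk4 and Ccna2 rose by 1.38 and 3.66, and E2f6 and Rbl2 were lower (-1.83 and -0.65).

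Other cell types moved at the same time. Of 15 macrophage markers, 13 were higher at WT day 7 and their summed level went from 2410 to 2750 CPM at WT day 0 to between 4740 and 8520 CPM. All 11 skeletal muscle fibre markers were lower, with sums of 22700 to 56000 CPM at WT day 0 and 208 to 1630 CPM at WT day 7. Neutrophil marker sums went from 5.83 to 7.46 CPM up to between 77.1 and 152 CPM. Sums of T and NK cell, B and plasma cell and muscle satellite cell and myoblast markers were also higher without overlap. Their single markers were mixed. Cd4 went from 2.43 to 25.8 CPM and Cd3e from 0.707 to 0.194 CPM (3 of 8 T and NK cell markers higher, 1 lower). Cd79b went from 0.606 to 3.39 CPM and Jchain from 0.852 to 0.162 CPM (1 of 6 higher, 1 lower). Myog went from 0.63 to 11.9 CPM and Myod1 from 8.56 to 3.71 CPM (3 of 6 higher, none lower). All 6 adipocyte and all 6 Schwann cell markers were lower. Sums of endothelial, pericyte and smooth muscle, chondrocyte and keratinocyte markers were lower without overlap. The chondrocyte sum followed Chad (means 8630 and 217 CPM), whereas Acan went from 8.83 to 203 CPM. Of 5 tested chondrocyte markers, 2 were higher and 1 lower. Among 7 pericyte and smooth muscle markers 4 were lower and 1 higher. Des went from 1550 to 173 CPM and Acta2 from 85.6 to 511 CPM. Tenocyte, mast cell and erythroid sums overlapped. Single tenocyte markers moved both ways, with 2 of 10 higher and 3 lower. Col1a1 went from 7890 to 19500 CPM and Dcn from 16800 to 4330 CPM. Among all these lists, only the neutrophil marker Ly6g was at 0, in WT day 0. In bulk tissue, more cells of a type and more RNA per cell cannot be told apart. With the macrophage score as a covariate, 25 members in place of 38 passed, at a median log2 change of 1.39 in place of 1.49 with all 39 above 0, and higher calls over all tested genes went from 6110 to 2755. The score moves with the groups, and its part in the result was not tested.

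By WT day 14 most members had lost the larger share of their rise. Against WT day 7, 37 of 39 members were lower and none was higher, beside 14.3% and 16.0% of all tested genes, and the median log2 change was -0.92. Only Orc6 (-0.16 ± 0.09, adjusted p = 0.179, edgeR) and Gins3 (-0.40 ± 0.16, adjusted p = 0.0712, edgeR) did not pass. Against WT day 0, 29 members were still higher and none was lower, beside 28.0% and 26.2% of all tested genes, with a median log2 change of 0.62. Over the 38 members that rose at WT day 7, the median share of the rise in CPM left at WT day 14 was 28.5%. With the macrophage score as a covariate, 11 members in place of 37 were lower at WT day 14 than at WT day 7, at a median of -0.88 with all 39 below 0, and lower calls over all tested genes went from 2714 to 575. Macrophage markers were themselves lower than at WT day 7 in 14 of 15 cases, and their part in the result was not tested.

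The share left ranged widely between genes, within roles as well as between them. Rrm2 kept 47.4% of its rise, with 28.5, 31.5, 22.2 and 39.9 CPM at WT day 14, all above WT day 0 and below WT day 7. Rrm1 kept 25.0% and Tk1 28.2%, while the polymerase and primase genes ran from -20.8% for Pold1 to 29.2% for Pole and 47.0% for Prim2. Ccne1 kept 49.4%, at 4.78, 5.84, 4.15 and 6.60 CPM. All 4 nucleotide synthesis genes, both cyclin E genes and all 3 chromatin genes stayed above WT day 0. Among polymerase and primase genes only Prim2 and Pole stayed above day 0. Pola1, the catalytic subunit of polymerase alpha, kept 3.34% of its rise, with 9.24, 11.8, 8.18 and 12.9 CPM against 10.2 ± 0.961 CPM at WT day 0 (SD, n = 4). Pold1 had a WT day 14 mean of 19.3 ± 4.88 CPM (SD, n = 4), below that of day 0, but the difference did not pass (log2 -0.16 ± 0.14, adjusted p = 0.363, edgeR). Without WT day 14 replicate 4, Pold1 and Rpa2 passed as lower than WT day 0.

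The libraries of a group moved as a set across the 39 genes. Taking in each library the median over the 39 genes of the level relative to the WT day 0 mean, WT day 7 libraries stood at 2.90, 3.25, 2.85 and 2.52 times and WT day 14 libraries at 1.40, 1.60, 1.26 and 2.12 times. WT day 14 replicate 4 was the highest of its group in 34 of 39 genes, and WT day 7 replicate 2 in 32. KO day 7 libraries stood at 2.40, 2.31, 1.93 and 1.93 times and KO day 14 libraries at 1.16, 1.53, 1.38 and 1.62 times. Deviations from the group mean correlated between members with a median Pearson's r of 0.67 over 741 pairs of genes in 20 libraries, which share depth and scaling. A different measure, the r of a gene with the mean of the members, had a median of 0.00 across 18879 other genes. Positive and negative values offset each other in that median, so it is no background for the pairs. Uhrf1 followed the mean of the other members most closely (r = 0.96) and Orc6 least (r = 0.25). For each of the 15 marker lists, the log2 CPM deviations from the group mean were averaged over its markers. These averages correlated with the members' mean deviation between -0.23 (T and NK cell markers) and 0.34 (chondrocyte markers).

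**Figure D4:**
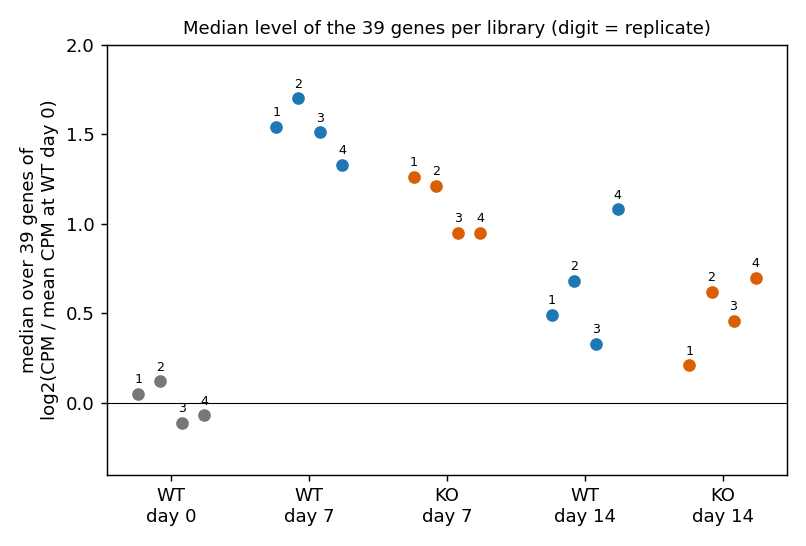
Median over the 39 genes of log2(CPM / mean CPM at WT day 0) (y axis) in each library (points, the digit is the replicate number) by group (x axis). All WT day 7 libraries, at 1.33 to 1.70, lie above all KO day 7 libraries, at 0.95 to 1.26, and the day 14 groups overlap.

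The rise was also seen in tendon labelled KO. At KO day 7, 37 members were higher than at WT day 0 and none was lower, beside 29.4% and 28.3% of all tested genes, with a median log2 change of 1.07. Pold1 (0.24 ± 0.14) and Rpa2 (-0.02 ± 0.12) did not pass. With the macrophage score as a covariate, 22 members in place of 37 passed, at the same median of 1.07, and higher calls over all tested genes went from 5564 to 2533. At KO day 14, 25 members were higher and 2 lower than at WT day 0, beside 25.4% and 25.0% of all tested genes. The lower members were Pold1 (-0.41 ± 0.14) and Rpa2 (-0.44 ± 0.12). Pold1 no longer passed when WT day 0 replicate 2 was left out, nor without replicate 1 or replicate 4 of KO day 14. Between the KO days, 35 members fell and none rose, beside 8.57% and 7.09% of all tested genes, with a median of -0.70. With the macrophage score as a covariate, 1 member in place of 35 passed, at a median of -0.65 with all 39 below 0, and lower calls over all tested genes went from 1621 to 145. Macrophage markers were lower in 11 of 15 cases over the same days. These comparisons share WT day 0 with those in WT tendon.

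The genotype comparison asks whether libraries labelled KO differ from WT libraries after the same time of stimulus. At day 7 all 39 estimates were below 0 in KO tendon against WT tendon, with a median log2 difference of -0.37, beside -0.01 over all tested genes. The median ratio of KO to WT means was 0.774. Only 8 members passed the test as lower and none as higher, beside 5.42% and 9.39% of all tested genes. They were Mcm4, Mcm6, Pola1, Prim2, Pcna, Rrm1, Tyms and Tk1. In 14 members every KO day 7 library was below every WT day 7 library, beside 10.3% of all tested genes. For each of those the exact permutation test over 4 against 4 libraries gave its smallest possible two-sided p, 0.0286, unadjusted.

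**Figure D5:**
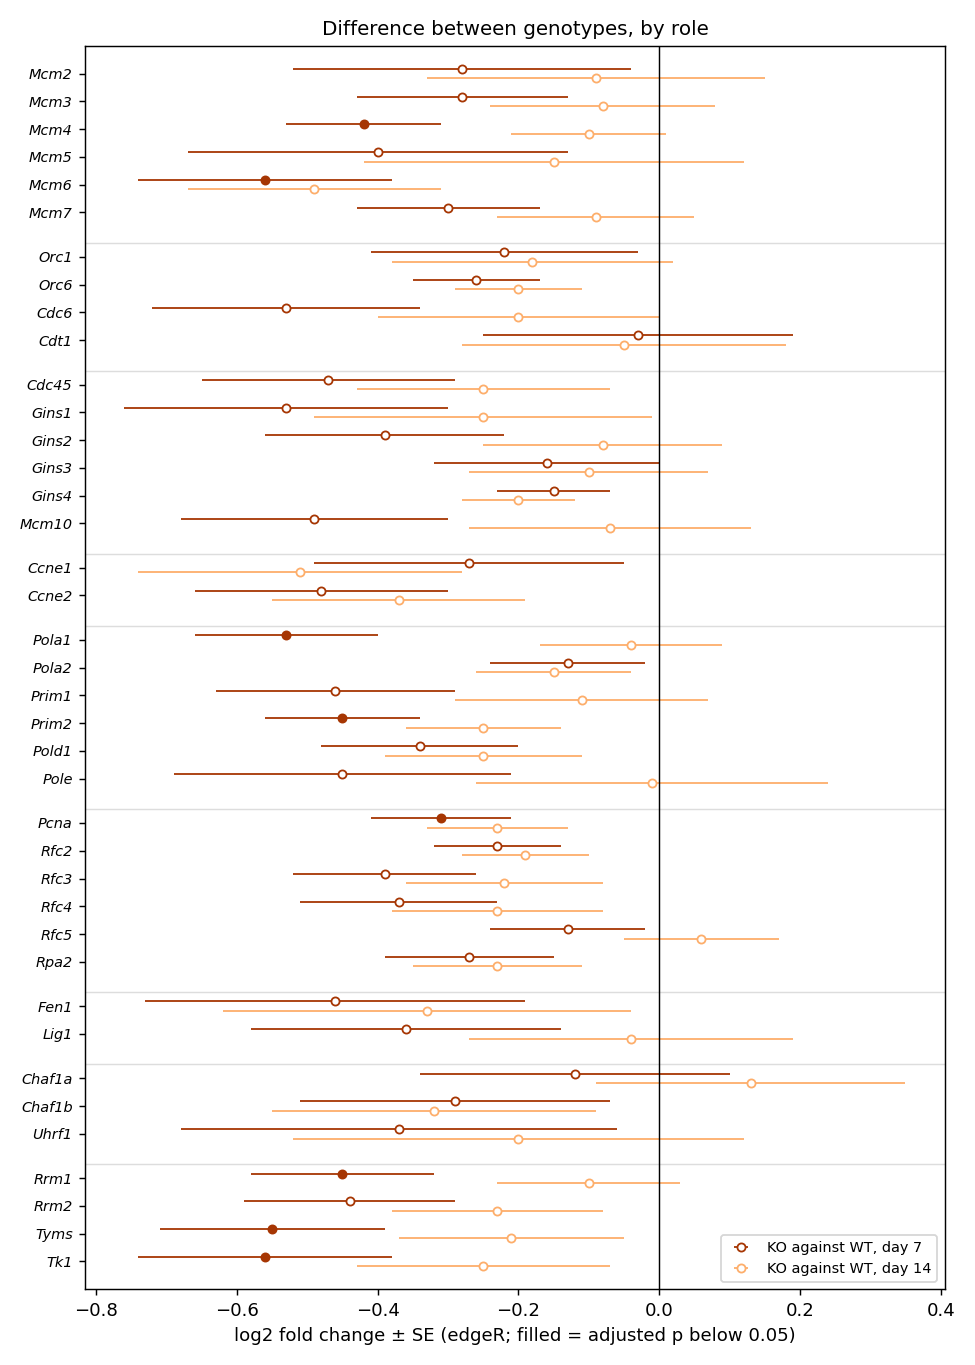
Log2 difference (x axis) between KO and WT tendon at day 7 and at day 14 for each of the 39 genes (y axis, grouped by role). Points are edgeR estimates, bars are SE and filled points have an adjusted p below 0.05. At day 7 all points are below 0 and 8 are filled, and at day 14 none is filled.

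Nucleotide synthesis had the most calls for its size, 3 of 4 genes. Tk1 read 38.5, 45.5, 41.9 and 35.3 CPM at WT day 7 and 34.1, 26.9, 24 and 24.4 CPM at KO day 7, a log2 difference of -0.56 ± 0.18 (adjusted p = 0.0399, edgeR). Tyms read 24.1, 25.6, 21.8 and 19.1 CPM at WT day 7 and 18.5, 15.4, 14.0 and 14.0 CPM at KO day 7 (-0.55 ± 0.16, adjusted p = 0.024, edgeR). Neither gene had overlapping groups. Rrm1 groups overlapped by 1 library, KO day 7 replicate 1, at 81.0 CPM against a lowest WT value of 79.8 CPM (-0.45 ± 0.13). Rrm2 was lower in each KO library than in each WT library, but did not pass (-0.44 ± 0.15, adjusted p = 0.0565, edgeR).

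Of the polymerase genes, Pola1 read 20.2, 23.1, 20 and 16.6 CPM at WT day 7 and 15.8, 14.0, 13.8 and 11.9 CPM at KO day 7, without overlap (-0.53 ± 0.13, adjusted p = 0.0132, edgeR). Prim2, the large subunit of primase, read 17.6, 21.0, 16.7 and 16.1 CPM at WT day 7 and 13.8, 13.5, 13.2 and 11.8 CPM at KO day 7 (-0.45 ± 0.11, adjusted p = 0.0113, edgeR). Its groups also stayed apart. Mcm6 read 65.3, 86.4, 73.9 and 65.2 CPM at WT day 7 and 57.3, 60.9, 41.2 and 37.5 CPM at KO day 7 (-0.56 ± 0.18, adjusted p = 0.0456, edgeR). Mcm4 differed by -0.42 ± 0.11 and Pcna by -0.31 ± 0.10. None of the 4 loading genes, 6 helicase activators, 2 cyclin E genes, 2 strand-joining genes or 3 chromatin genes passed. Not passing did not always mean a smaller difference. The ratio of KO to WT means was 0.693 for Cdc6, 0.695 for Gins1 and 0.719 for Ccne2, against 0.75 for the called Mcm4. Other genes of these roles were closer to equal, up to 0.976 for Cdt1. Cdt1 was nearest to 0, with 15.2 ± 2.38 CPM in WT and 14.9 ± 0.84 CPM in KO tendon (SD, n = 4; log2 difference -0.03 ± 0.22).

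The calls at day 7 depended on single libraries. Without WT day 7 replicate 2, none of the 39 members passed, without KO day 7 replicate 4, 1 did, without KO day 7 replicate 3, 2 did, without WT day 7 replicate 1, 3 did, and without KO day 7 replicate 2, 4 did. It was 5 without WT day 0 replicate 1, WT day 0 replicate 3 or WT day 7 replicate 3. Calls over all genes moved too: 1025 were lower with all libraries, 413 without WT day 7 replicate 2, 418 without KO day 7 replicate 4 and 654 without KO day 7 replicate 3. DESeq2 called 13 members and 1428 genes lower, a fit of the compared groups alone 18 members and 1364 genes, and a fit with no filter on low counts 5 members and 707 of 24885 genes. The authors' deposited table lists 38 of the members and has 11 of them lower at a false discovery rate below 0.05, the 8 named above with Orc6, Rfc3 and Rrm2.

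Markers of other cells differed between the genotypes at day 7. The muscle fibre sum was 208 to 1630 CPM in WT and 4750 to 11500 CPM in KO libraries, and 9 of 11 markers were higher. Tenocyte markers, which include Scx, summed to between 48700 and 59900 CPM in WT and between 87600 and 108000 CPM in KO libraries. These sums followed Col1a1 (WT and KO means 19500 and 39900 CPM) and Col1a2 (22400 and 39700 CPM). The means of Mkx were 25.1 and 25.8 CPM and those of Tnmd 214 and 226 CPM. Chondrocyte sums were 418 to 509 CPM in WT and 1000 to 1400 CPM in KO libraries, and pericyte and smooth muscle sums 1050 to 1520 and 1700 to 2790 CPM. Of the pericyte and smooth muscle markers Des differed most (WT and KO means 173 and 1080 CPM), while the means of Acta2 were 511 and 341 CPM. B and plasma cell sums were lower in KO libraries, at 2.61 to 3.85 against 4.07 to 5.54 CPM. Cd79b differed most of these (KO and WT means 1.92 and 3.39 CPM), while the means of Jchain were 0.454 and 0.162 CPM. The sums of the other 10 lists overlapped, macrophages included, at 4740 to 8520 and 4940 to 7220 CPM. Even so, 3 of 6 mast cell markers were called lower and 3 of 4 keratinocyte markers higher. The keratinocyte sum in KO libraries ran from 3.6 to 680 CPM with a median of 8.26 CPM. Its mean of 175 CPM thus rested on a single KO day 7 library. With the muscle fibre score as a covariate no member passed, all 39 estimates stayed below 0 with a median of -0.46, and lower calls over all tested genes went from 1025 to 218. The macrophage score as a covariate gave a median of -0.30, with 38 estimates below 0 and 1 above. Mcm6 and Pcna then no longer passed, Orc6 and Ccne2 did, and lower calls over all tested genes went to 1291. The part of these cells in the difference was not tested.

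Related genes at day 7 included 6 of 36 other replication factors (16.7%) that were lower in KO tendon and none that was higher. Among them were Wdhd1, which links the helicase to polymerase alpha (-1.0 ± 0.21), Dbf4 (-0.57 ± 0.15) and Topbp1, a scaffold of origin firing (-0.49 ± 0.09). Of 35 other nucleotide genes, 3 (8.57%) were lower, near the 5.42% of all tested genes, Dctd most (-0.72 ± 0.16), and 1, Impdh1, was higher (0.32 ± 0.11). Of 29 G1 to S regulators, 3.45% were called in each direction, a smaller share than the 5.42% lower and 9.39% higher of all tested genes: Skp2 was lower (-0.44 ± 0.14) and Cdkn1c, a CDK inhibitor, was higher (0.69 ± 0.21).

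At day 14 no member passed the test between genotypes. The edgeR test called 0 of 39 lower and 0 higher, with 7 at an unadjusted p below 0.05, DESeq2 also called 0, and edgeR called 0.719% of all tested genes lower and 1.06% higher. The median log2 difference was -0.20, 37 estimates were below 0 and the groups overlapped in all 39 genes, while 3.14% of all tested genes had all KO libraries below all WT libraries. Ccne1 had the lowest estimate, with 4.78, 5.84, 4.15 and 6.60 CPM in WT and 2.64, 3.32, 2.94 and 6.07 CPM in KO tendon (-0.51 ± 0.23, adjusted p = 0.268, edgeR). Without KO day 14 replicate 4, the high library of that group, Ccne1 passed as lower. Without WT day 14 replicate 4 no member passed, but edgeR calls over all tested genes went from 136 to 817 lower and from 201 to 855 higher. The change of the genotype difference from day 7 to day 14 was tested as an interaction, which edgeR and DESeq2 called in 0 of 39 members, with 1 at an unadjusted edgeR p below 0.05. Over all tested genes edgeR likewise called 0.0%, while DESeq2 called 67 higher and 112 lower. The median interaction was 0.19 and the largest was that of Pola1, 0.49 ± 0.19 (adjusted p = 0.357, edgeR), so a difference between the days was not shown.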

How the data were processed

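Gene counts of 20 libraries of mouse plantaris tendon RNA were used as the authors deposited them, as whole-number raw counts. FastQC, STAR, edgeR and mm10 are named in the submitters' processing notes; no version, counting tool or strand setting is given there. The authors' deposited table of comparisons gives log2 fold changes and log2 CPM, p-values and false discovery rates per the file headers, and entered no test. Genes were kept with filterByExpr (minimum count 10), scaled with TMM and fitted in edgeR 4.0.16 (R 4.3.3, limma 3.58.1) with 1 mean per group over all 20 libraries, robust quasi-likelihood dispersions and Benjamini-Hochberg adjustment over 18918 genes. The SE is the log2 fold change divided by the root of its F statistic. Single members were also compared by exact two-sided permutation of CPM. Counts were simulated for WT day 7 against WT day 0 over 18918 genes, with 50 genes changed at each fold size. Of these, 66% of 2-fold and 36% of 1.5-fold rises were called, and 56% and 32% of falls of those sizes. False calls made up 4.04% of calls. In the data 32.3% of genes were called higher and 31.8% lower, a far larger share, so these values do not give the power there. The step's pass mark on called shares was lowered after a first run had missed it. Positions and exon lengths (all annotated exons of a gene merged) come from GENCODE vM21 (GRCm38), promoter windows from RefSeq (GRCm38.p6). All 39 members may be named, and of each other list up to 4 genes per direction with the smallest p. The members and lists were chosen with earlier results of these data known. Alternatives were other scaling, filters, DESeq2 1.42.0, a replicate block, the compared groups alone and leaving out each library; muscle fibre and macrophage scores as covariates were added after seeing the data.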

Additional observations from a re-analysis of the deposited data

Results flagged for a closer look

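In 200 groups of 4 values, 8 had 1 library set apart from the other 3 by more than Dixon's 95% limit, a gap measured against the group's range. Chance flags about 1 in 20 groups. Orc1 had 3 of them. WT day 0 replicate 1 read 1.16 CPM where the others read 0.842 to 0.875 CPM, WT day 7 replicate 2 read 4.66 CPM against 3.52 to 3.64 CPM, and KO day 14 replicate 1 read 1.39 CPM against 1.72 to 1.78 CPM. KO day 14 replicate 1 was also low for Chaf1a, at 6.76 CPM against 9.75 to 9.79 CPM. Chaf1b in WT day 14 replicate 4 was high, at 13.4 CPM against 5.71 to 7.00 CPM. Pcna in WT day 14 replicate 3 was low, at 26.4 CPM against 29.6 to 30.2 CPM. Tk1 in WT day 0 replicate 2 was low, at 7.81 CPM against 9.51 to 9.80 CPM, and Rpa2 in KO day 7 replicate 1 was high, at 22.6 CPM against 20.1 to 20.4 CPM.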

How the results depend on the processing

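The 38 calls at WT day 7 and the 37 at KO day 7 against WT day 0 held under other scaling and filters, DESeq2, the replicate block, the compared groups alone and each library left out; each of the 8 genotype calls at day 7 was lost in at least 1 of these. No member changed sign with a call. Lower calls of KO against WT at day 7 numbered 5 with no filter on low counts, 18 with the compared groups alone, 13 with DESeq2 and 0 with the muscle fibre score. With the macrophage score, higher calls numbered 25 at WT day 7, 22 at KO day 7 and 16 at KO day 14 against WT day 0, at median log2 changes of 1.39, 1.07 and 0.53 in place of 1.49, 1.07 and 0.54. Higher calls over all genes fell from 6110 to 2755, 5564 to 2533 and 4796 to 3934. It left 11 lower calls from WT day 7 to day 14, 1 from KO day 7 to day 14 and 1 at KO day 14 against WT day 0, where the muscle fibre score also left 1. Leaving out single libraries gave 0 to 12 lower calls for KO against WT at day 7 and 0 to 1 at day 14. It gave 38 to 39 higher calls at WT day 7, 37 at KO day 7, 27 to 31 higher and 0 to 2 lower at WT day 14, and 20 to 26 higher and 1 to 2 lower at KO day 14, each against WT day 0. Between days it gave 34 to 37 lower calls in WT and 24 to 35 in KO tendon. The causes were not tested. Deviations of same-numbered libraries correlated above 0.1 in 14 of 40 pairs (median 0.047). For libraries of different numbers it was 19 of 120 pairs (median -0.009). Whether the replicate numbers pair the libraries was not tested, and the main fit had no replicate block. The replicate block gave 3 new calls and lost 3 over the members and comparisons, called 9 members lower in KO at day 7, and moved no count by over 1.5 times. Library depth limits Fen1 most, with 989 counts in all.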

Other observations

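In the authors' deposited table, the column named for KO day 14 against WT day 7 equals the KO against WT difference at day 14 minus that at day 7, within 0.01 on the log2 scale, in 13266 of 13266 genes. The comparison in its name, rebuilt from the table's own changes from WT day 0, matches in 203 genes (1.53%). The column was not used for the members.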
